A study of Mus musculus with 8 samples.

Results

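In the mouse genome, 7 windows described as holding clusters of zinc finger genes were examined in mouse embryonic fibroblasts (MEF), cultured connective tissue cells of the embryo. The windows were fixed by position on build mm9, as 81 to 82 Mb of chromosome 10, 62 to 68 Mb of chromosome 13, 71 to 74 Mb of chromosome 8, 21 to 24 Mb of chromosome 17, 175 to 178 Mb of chromosome 2, 19 to 25 Mb of chromosome 12 and 6 to 13 Mb of chromosome 7. On chromosome 7 the stretch from 6.63 to 6.71 Mb, in which no list had a peak, was left out. A peak belonged to a window when its midpoint lay in it, which gave 983 of the 38359 peaks in 5 lists. Of these, 544 were H3K9me3 peaks of wild-type (WT) cells and 55 were H3K9me3 peaks of KAP1 knockout (KO) cells. A further 228 were H4K20me3 peaks of WT cells, 138 were H4K20me3 peaks of KO cells and 18 were KAP1 peaks of WT cells.

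Each list came from 1 chromatin immunoprecipitation library, both genotypes being labelled MEF. The labels give no strain, age, sex, knockout method or number of cultures, KAP1 was not profiled in KO cells, and peak positions cannot check the cell type or the knockout. The 3 input libraries were not analysed here. Since every group was a single library, replicate error could not be measured and genotypes were not tested against each other. Differences below describe these libraries, intervals are exact 95% binomial ranges that cover counting error over peaks alone, and neighbouring peaks are not independent of each other.

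Zinc finger genes of the KRAB family encode repressors that bind DNA through arrays of zinc fingers and recruit KAP1 (TRIM28) through the KRAB domain. KAP1 in turn brings the histone methyltransferase SETDB1, which places H3K9me3, and proteins of the HP1 family, which bind that mark. H4K20me3 is a further mark of compact chromatin, placed by the SUV420H enzymes. The zinc finger genes lie in tandem clusters that grew by gene duplication, and such clusters are known in several cell types to carry H3K9me3 and KAP1 themselves, often over the exons that encode the zinc fingers. In the RefSeq table of build GRCm38.p6, protein-coding genes whose symbols start with Zfp, Zscan, Zkscan or Rsl made up 1.95% of all protein-coding genes (428 of 21900). Over whole chromosomes they numbered 102 on chromosome 7 (5.02% of its protein-coding genes), 47 on chromosome 17 (4.44%) and 44 on chromosome 13 (5.31%). Chromosome 2 had 28 (1.57%), chromosome 8 had 25 (2.40%), and chromosomes 10 and 12 had 6 each (0.599% and 0.884%). These symbol counts do not show which genes lie in the windows or belong to the KRAB family. Chromosome 13 carries Rsl1, a KRAB zinc finger repressor known for setting sex differences of gene expression in liver. Gene positions of build mm9 were not used here, so peaks are given by position and not by gene.

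In WT cells, H3K9me3 peaks lay more densely in all 7 windows than on the rest of the same chromosome, with a wide range. The 7 windows together held 544 peaks in 28.92 Mb, or 18.8 peaks per Mb, and the rest of their chromosomes held 5296 peaks, or 6.01 per Mb, a ratio of 3.13. The chromosome 10 window stood first, with 141 peaks per Mb against 7.45 on the rest of that chromosome, a ratio of 18.9. Peaks covered 91.7 kb of this single Mb, and 4.12 kb per Mb on the rest of the chromosome. The chromosome 13 window held 160 peaks (26.7 per Mb, against 5.44 on the rest), the chromosome 8 window 85 (28.3 against 9.07) and the chromosome 17 window 64 (21.3 against 10.6). The other 3 windows were sparse. Chromosome 2 held 22 peaks (7.33 per Mb against 5.70), chromosome 12 held 37 (6.17 against 3.41) and chromosome 7 held 35 (5.06 against 1.98). The windows thus fell into 4 with over 20 peaks per Mb and 3 with under 8.

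**Figure D1:**
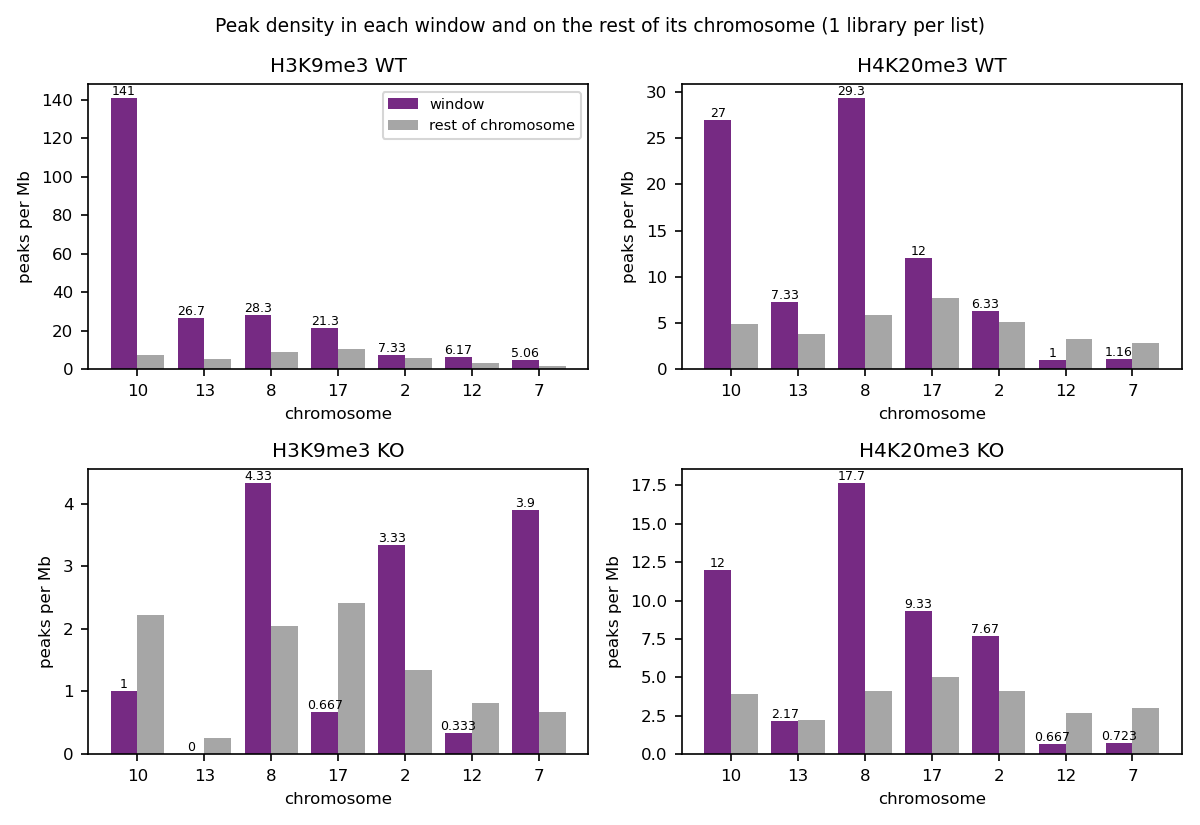
Peaks per Mb in each window (purple) and on the rest of its chromosome (grey), for H3K9me3 and H4K20me3 in WT and KO cells, with 1 library per list and a separate vertical scale in each panel. H3K9me3 of WT cells reached 141 peaks per Mb on chromosome 10, while H3K9me3 of KO cells passed 4.33 per Mb in no window.

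The dense windows were uneven inside. Counted in bins of 1 Mb, the chromosome 10 window ranked 1 of 127 bins of its chromosome by WT H3K9me3 peaks, and the next bin outside it held 27. On chromosome 13, the bins from 66 to 67 Mb and from 62 to 63 Mb ranked 1 and 2 of 118, with 48 and 47 peaks, and the bin from 65 to 66 Mb ranked 3 with 34. Between them, 63 to 64 Mb held 4 peaks, the same as the median bin outside the window. On chromosome 8, the bin from 71 to 72 Mb held 53 peaks and ranked 1 of 129, followed in the window by 20 and 12. On chromosome 17, the bin from 22 to 23 Mb held 43 peaks and ranked 2 of 93, behind the bin from 17 to 18 Mb, which lies outside the window and held 68. In the sparse windows the highest bins were 177 to 178 Mb of chromosome 2 with 17 peaks (rank 9 of 179), 23 to 24 Mb of chromosome 12 with 10 (rank 7 of 119) and 9 to 10 Mb of chromosome 7 with 9 (rank 2 of 150). The rank on chromosome 7 reflects a chromosome whose median bin outside the window held 1 peak.

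**Figure D2:**
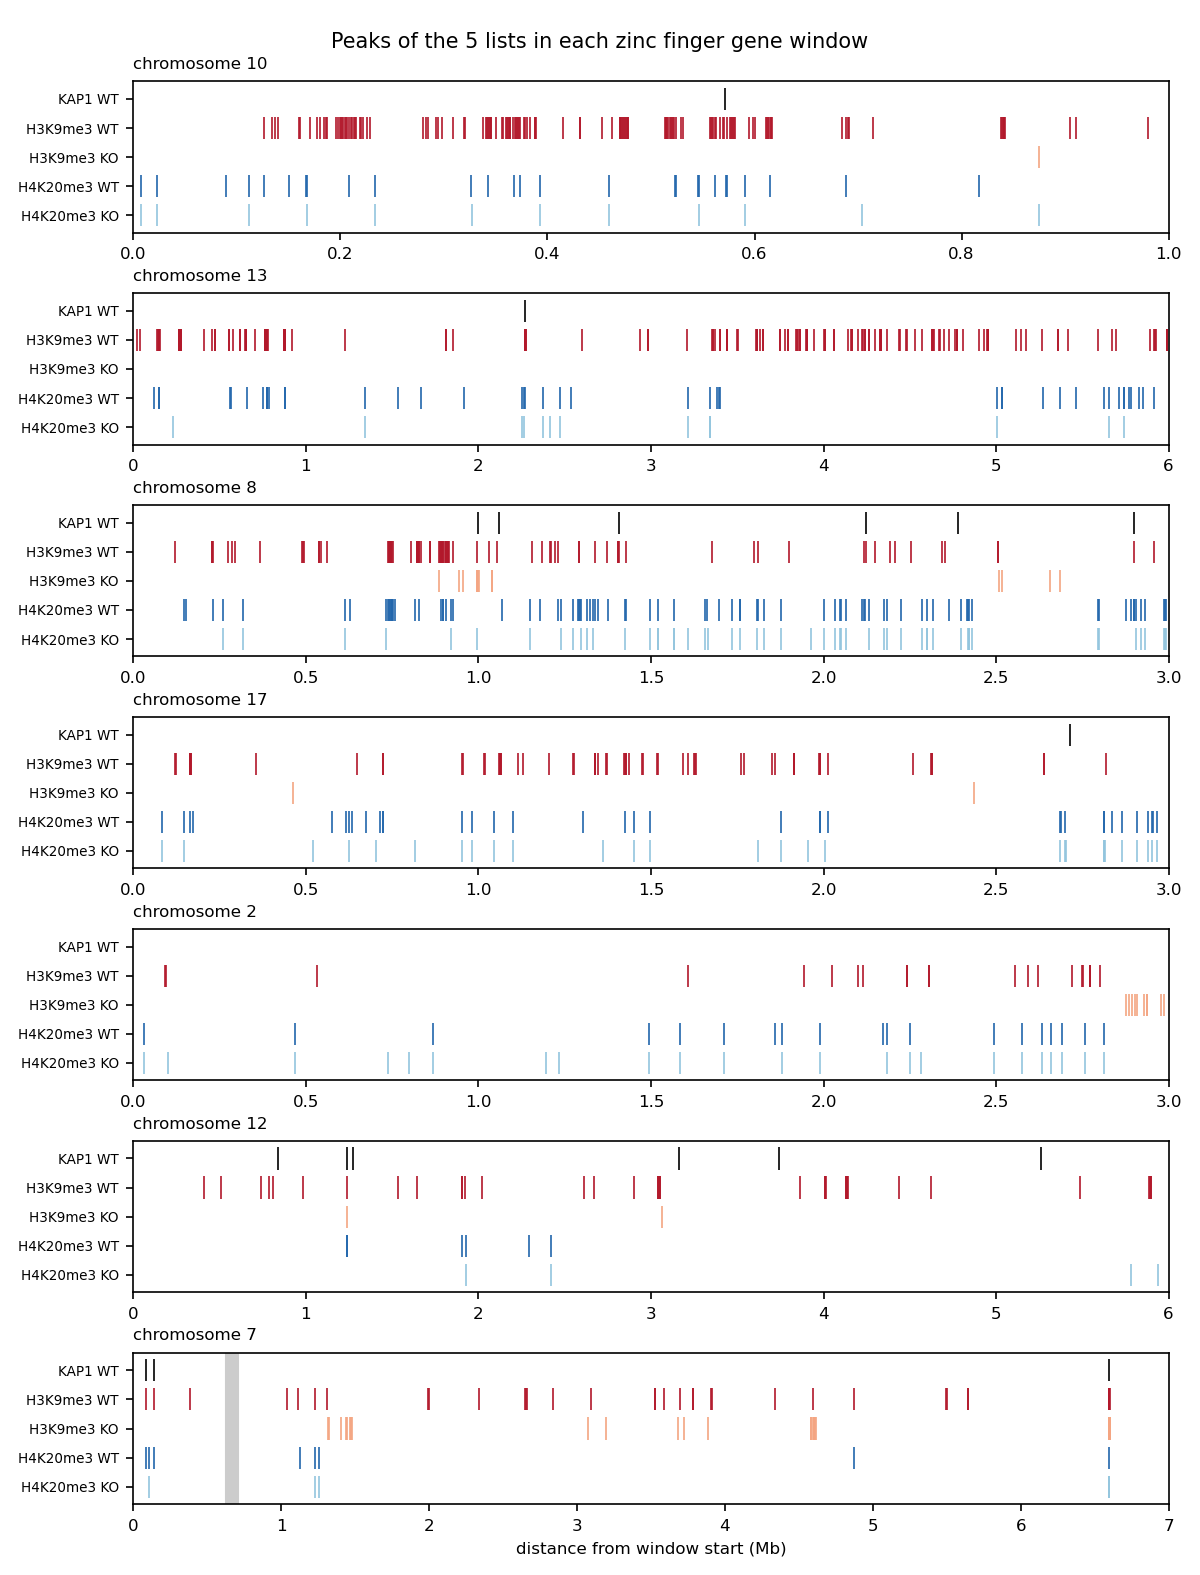
Position of every peak of the 5 lists in the 7 windows, as distance from the window start in Mb, with 1 vertical tick per peak midpoint and the stretch left out on chromosome 7 shaded grey. H3K9me3 ticks of WT cells crowd on chromosomes 10, 13, 8 and 17, and the H3K9me3 track of KO cells is empty on chromosome 13 and holds 1 tick on chromosome 10.

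Peaks in the dense windows came in close series.  In the chromosome 10 window the median gap between successive peaks was 0.754 kb, against 47.1 kb on the rest of the chromosome. The median gap was 7.31 kb on chromosome 13 (57.5 kb on the rest), 5.76 kb on chromosome 8 (36.9 kb) and 6.82 kb on chromosome 17 (22.0 kb). Gaps in the sparse windows had medians of 29.4 kb on chromosome 2 (44.6 kb on the rest), 77.3 kb on chromosome 12 (78.9 kb) and 98.4 kb on chromosome 7 (190.6 kb). A neighbouring peak within 10 kb was found for 426 of the 544 peaks (78.3%, interval 74.6 to 81.7%), for 53.7% on the rest of the 7 chromosomes and for 55.7% of the whole list. The chromosome 10 window reached 97.2%, chromosome 17 had 84.4%, chromosome 13 had 77.5% and chromosome 8 had 71.8%. Chromosome 7 had 57.1%, chromosome 12 had 51.4% and chromosome 2 had 50%. On chromosomes 2, 12 and 7 the interval of the window contained the share on the rest of the chromosome (53.1%, 49.5% and 43.3%), so a difference in this share was not detectable there. More peaks per Mb shorten gaps by construction, and the part of peak density in these gaps and shares was not tested.

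**Figure D3:**
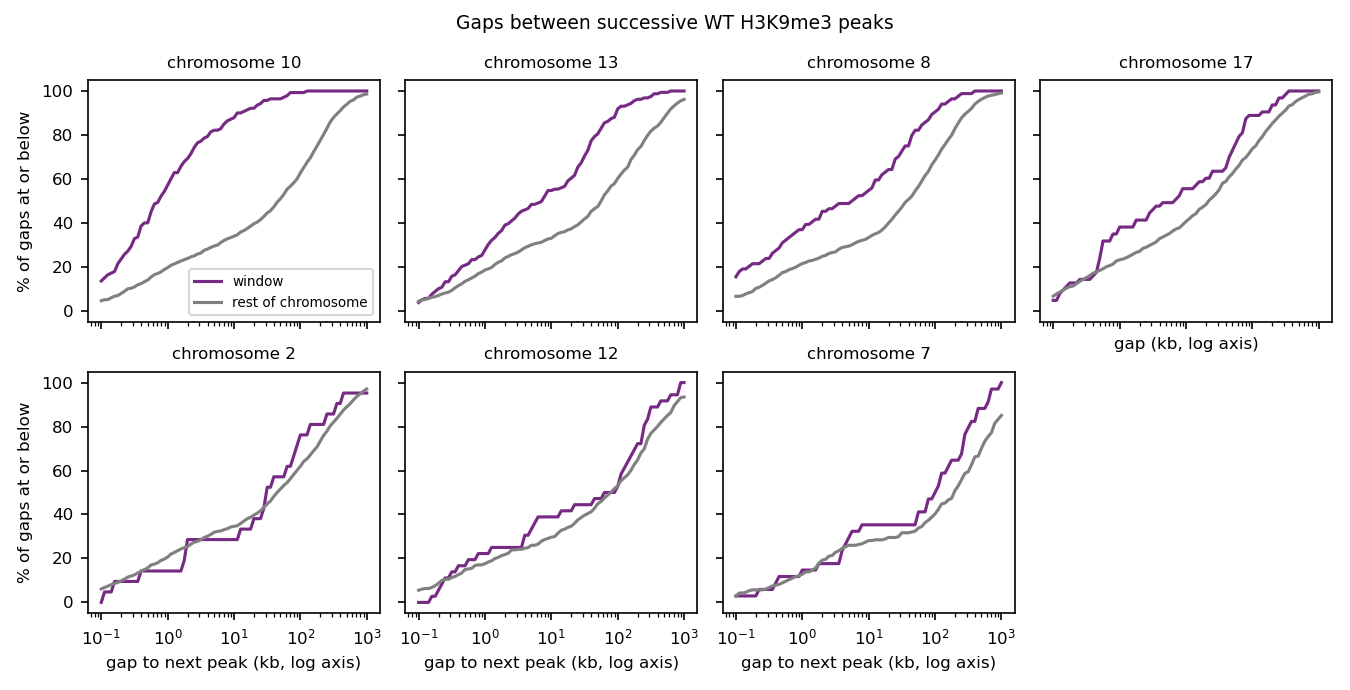
Cumulative share of the gaps between successive WT H3K9me3 peaks that are no longer than the value on the horizontal axis (kb, log scale), for each window (purple) and the rest of its chromosome (grey). The window curve lies left of the grey curve over most of its length on chromosomes 10, 13 and 8, with medians of 0.754, 7.31 and 5.76 kb.

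Runs of peaks, joined wherever the gap was at most 20 kb, show how these series are built. Runs were counted in the windows alone, so whether they are particular to the windows cannot be told from these counts. The longest run lay on chromosome 10 from 81279447 to 81388968, with 40 peaks over 109.5 kb, 23.2% of it covered by peaks. In that window 6 runs of 5 or more peaks held 129 of the 141 peaks. On chromosome 8 the longest run had 17 peaks over 41.3 kb (71885003 to 71926339), with 40.2% covered. On chromosome 13 the largest of 64 runs had 9 peaks over 21.6 kb (62760974 to 62782583), and 9 runs of 5 or more held 58 of the 160 peaks. No largest run on chromosomes 17, 2, 12 or 7 passed 5 peaks. None of the peaks in the largest runs of the windows other than chromosome 7 was kept in KO cells.

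Taken over all 7 windows, single peaks had about the same median length and score as elsewhere, but single windows differed. Scores are those the authors deposited and serve here mainly to rank peaks within a list. WT and KO scores given together below are not read as a change. The median length was 455.5 bp in the windows and 457 bp on the rest of the chromosomes, and median scores were 76.2 and 75.3. Median scores lay above the rest on chromosomes 8 (116 against 81.3) and 10 (89.7 against 75.6). They lay below it on chromosomes 17 (67.8 against 81.1), 2 (65.1 against 73.0) and 13 (67.2 against 71.7). On chromosomes 12 (67.2 against 67.0) and 7 (67.9 against 65.8) they were close to the rest. Median lengths were above the rest on chromosomes 8 and 10 alone. A score in the top 10% of the list was reached by 64 of the 544 peaks (11.8%, interval 9.18 to 14.8%), against 10.2% on the rest. Chromosome 8 lay above this, with 23 of 85 peaks (27.1%, interval 18.0 to 37.8%) against 12.0% on the rest of the chromosome. Chromosome 17 lay below, with 3 of 64 (4.69%, interval 0.977 to 13.1%) against 13.7%. Peaks of at least 2 kb numbered 15 (2.76%, interval 1.55 to 4.51%), against 1.70% on the rest and 1.96% in the whole list. Of these, 7 lay on chromosome 8 (8.24% of its window, interval 3.38 to 16.2%, rest 2.63%). Chromosome 10 held 4 (2.84%, interval 0.778 to 7.10%, rest 0.853%). The strongest peak of the 7 windows was on chromosome 12 (20232477 to 20240604, 8128 bp, score 2537), followed by one on chromosome 8 (71749316 to 71755932, 6617 bp, score 2478). In the chromosome 10 window the top peak (81364671 to 81368283) scored 1189. That of chromosome 13 (64270588 to 64273323) reached 855, that of chromosome 17 (22423694 to 22425866) 494, that of chromosome 7 (12595651 to 12596395) 398 and that of chromosome 2 (177023152 to 177024423) 246. All 7 of these top peaks except the one on chromosome 2 overlapped a WT H4K20me3 peak. Top peaks of other regions were not examined for this, and the part of score and length in it was not tested. With each mark held to equal numbers of highest-scoring peaks in both genotypes, 19.3% of WT H3K9me3 peaks in the windows had H4K20me3. On the rest of the chromosomes 18.4% did.

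In KO cells few H3K9me3 peaks of the whole WT list were found at the same place, and almost none of those in the 4 dense windows. A WT peak was called kept if it shared 1 bp or more with a KO peak, and lost otherwise. In the whole list 3.10% of WT peaks were kept. In the 7 windows 8 of 544 were kept (1.47%, interval 0.637 to 2.88%), and on the rest of the chromosomes 2.70% (interval 2.28 to 3.17%). No peak was kept on chromosome 10 (0 of 141, interval up to 2.58%), chromosome 13 (0 of 160, up to 2.28%), chromosome 17 (0 of 64, up to 5.601%) or chromosome 2 (0 of 22, up to 15.4%). On chromosome 8, 1 of 85 was kept, and on chromosome 12, 1 of 37. Chromosome 7 kept 6 of 35 (17.1%, interval 6.56 to 33.6%), against 7.45% on the rest of that chromosome. Without chromosome 7 the share was 0.393%, 2 of 509, so 1 window supplies most of the kept peaks.

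**Figure D4:**
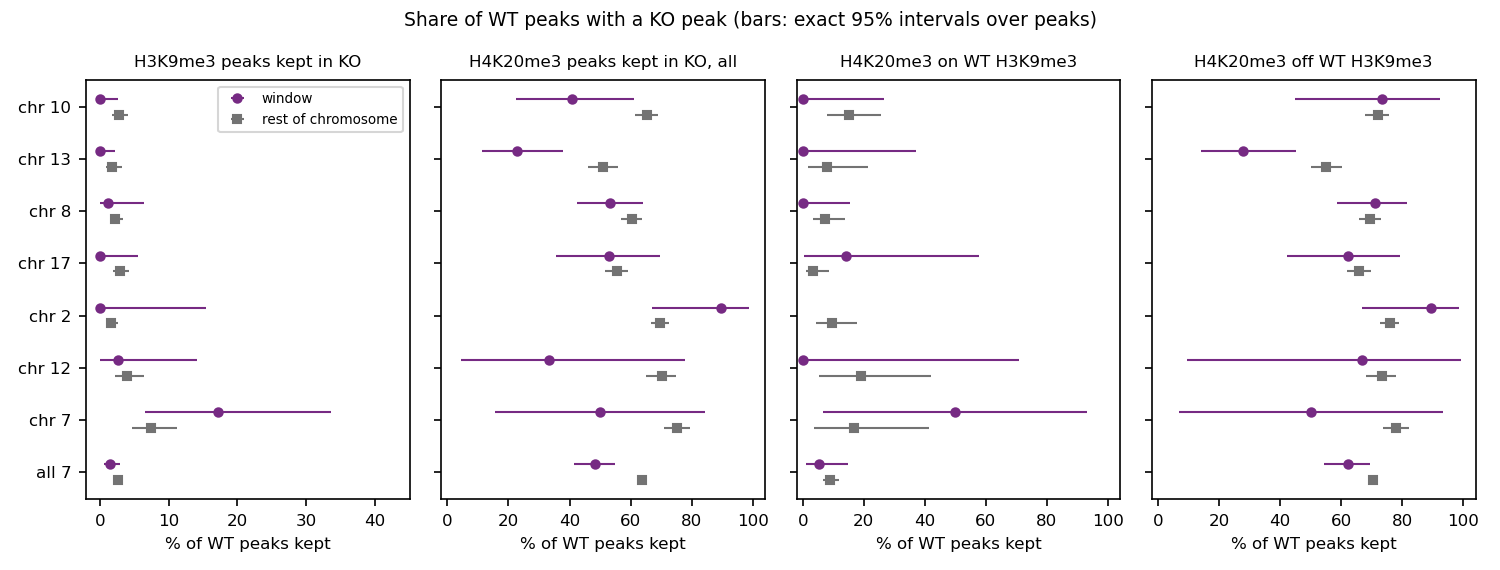
Percent of WT peaks with an overlapping KO peak in each window (purple circles) and on the rest of its chromosome (grey squares), for H3K9me3, for all H4K20me3 peaks, and for H4K20me3 on and off WT H3K9me3, with bars for exact 95% intervals over peaks. On WT H3K9me3, no H4K20me3 peak was kept in the windows of chromosomes 10, 13, 8 and 12, and chromosome 2 had no such peak.

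The number of H3K9me3 peaks gave a similar order, with chromosome 7 and chromosome 2 apart. The windows held 544 WT and 55 KO peaks, a KO to WT ratio of 0.101, while the rest of the chromosomes gave 0.227 (5296 and 1204). The chromosome 13 window went from 160 peaks to 0, on a chromosome whose rest also had a low ratio of 0.0464 (604 and 28). Chromosome 10 went from 141 to 1 (0.00709, rest 0.297), chromosome 17 from 64 to 2 (0.0312, rest 0.227), chromosome 12 from 37 to 2 (0.0541, rest 0.238) and chromosome 8 from 85 to 13 (0.153, rest 0.226). The ratio was above that of the rest on chromosome 2, from 22 to 10 (0.455, rest 0.237), and on chromosome 7, from 35 to 27 (0.771, rest 0.340). Without chromosome 7 the ratio over the other windows was 0.0550. Measured by covered length, the ratio over the 7 windows was 0.123, against 0.297 on the rest. On chromosome 12 it was 0.193, nearer to the 0.233 of the rest than the ratio of numbers was, the largest of its 2 KO peaks being 4182 bp long. Covered length on chromosome 7 was slightly greater in KO than in WT, with a ratio of 1.11, against 0.572 on the rest. The KO list is shorter as a whole and its depth is unknown, so ratios are read against the rest of the chromosome. When both genotypes were held to equal numbers of highest-scoring peaks, the windows gave 0.393 and the rest 1.05.

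The kept peaks lay at few places. On chromosome 7, 5 of the 6 formed 1 block of 5.69 kb, from 12595651 to 12601335, which is also the largest run of that window. Its 5 WT peaks scored between 83.6 and 398. The 6 KO peaks within 1 kb of the block scored between 52.9 and 651, and the strongest of them (12595510 to 12596338) was also the highest-scoring H3K9me3 peak of KO cells in the 7 windows. A KAP1 peak (12595538 to 12596388, score 70.4) and a WT H4K20me3 peak (12595543 to 12596261, score 58.8) lay at the same end of the block. In KO cells 2 H4K20me3 peaks were found there (12595698 to 12596384, score 147, and 12598679 to 12599188, score 58.6). Outside the block, chromosome 7 kept 1 peak, from 10595604 to 10597229, with a WT score of 275 and a KO score of 87.9. Chromosome 12 kept its strongest peak (20232477 to 20240604), where the WT score was 2537 and the KO peak, from 20236095 to 20240276, scored 335. Chromosome 8 kept a weak peak (71995647 to 71996899, WT score 64.0, KO score 201).

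Most H3K9me3 peaks of KO cells in the windows lay where WT cells had none. Of the 55 KO peaks, 47 had no WT peak (85.5%, interval 73.3 to 93.5%), near the 86.4% of the whole KO list. Their median score was 60.9, against 63.4 for all KO peaks of the windows, and 13 lay within 10 kb of a WT peak. Distances of new KO peaks to WT peaks, and runs of KO peaks, were summarised in the windows alone. None of them is read as particular to the windows. All 10 KO peaks on chromosome 2 were new. They lay from 177876683 to 177987175, at least 75.3 kb from any WT H3K9me3 peak, and the first 5 formed a run of 31.5 kb that held no WT H4K20me3, KO H4K20me3 or KAP1 peak. The strongest of them (177907439 to 177908196) scored 106. On chromosome 7, 21 of 27 were new. One run there held 7 KO peaks over 38.2 kb (10579670 to 10617894), 6 of them new, around the kept peak named above. Another held 3 new peaks (7465403 to 7481180), the nearest 157.3 kb from a WT peak. The strongest new peak of that window (12602634 to 12603412, score 120) lay 1.30 kb from the kept block. On chromosome 8, 12 of 13 were new, and the strongest (71998267 to 71999264, score 368) covered almost the same positions as a KAP1 peak of WT cells. The single KO peak of the chromosome 10 window (81874219 to 81874701, score 66.6) overlapped a KO H4K20me3 peak and lay 29.9 kb from the nearest WT H3K9me3 peak. The 2 KO peaks on chromosome 17 and the 1 new peak on chromosome 12 scored between 50.6 and 52.9, at the floor of the list.

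H4K20me3 was also dense in the windows of chromosomes 8, 10, 13 and 17, but not in those of chromosomes 12 and 7. WT cells had 29.3 H4K20me3 peaks per Mb in the chromosome 8 window (88 peaks, 5.88 per Mb on the rest) and 27 per Mb in that of chromosome 10 (27 peaks, 4.87 on the rest). Chromosome 17 had 12 per Mb (36 peaks, 7.76 on the rest), chromosome 13 had 7.33 (44 peaks, 3.84 on the rest) and chromosome 2 had 6.33 (19 peaks, 5.16 on the rest). Chromosome 12 had 1 per Mb (6 peaks, 3.23 on the rest) and chromosome 7 had 1.16 (8 peaks, 2.88 on the rest). H4K20me3 peaks of the windows were shorter and weaker than on the rest of the chromosomes, with median lengths of 663 and 779 bp and median scores of 119 and 168. Of the 228 peaks, 11 were in the top 10% of score (4.82%, interval 2.43 to 8.47%), against 11.0% on the rest, and 8 of the 11 lay on chromosome 8.

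Both marks met at a minority of the peaks of either mark. The same overlaps are seen from each list, so the shares differ with the numbers of peaks, 544 and 228. In WT cells H4K20me3 was also called at 54 of the 544 H3K9me3 peaks (9.93%, interval 7.55 to 12.8%), against 9.20% on the rest and 8.69% in the whole list. This order turned when 50% or more of a peak had to be overlapped (5.88% and 7.02%) or a score of at least 100 (11.6% and 13.1%). On chromosome 8 this share was 23.5% (20 of 85, interval 15.0 to 34.0%), against 9.30% on the rest of the chromosome, and on chromosome 2 it was 0 of 22. Seen from H4K20me3, 56 of 228 peaks lay on H3K9me3 (24.6%, interval 19.1 to 30.7%), against 11.0% on the rest and 10.6% in the whole list. The share was 44.4% on chromosome 10 (12 of 27) and 25% on chromosome 8 (22 of 88), against 11.7% and 14.7% on the rest of these chromosomes. Chromosome 13 had 18.2% (8 of 44, rest 8.92%) and chromosome 17 had 19.4% (7 of 36, rest 16.7%). In the sparse windows 3 of 6 lay on H3K9me3 on chromosome 12 (rest 5.80%), 4 of 8 on chromosome 7 (rest 4.39%) and 0 of 19 on chromosome 2 (rest 9.27%). All 7 windows had more H3K9me3 peaks per Mb than the rest, and the part of that density in these shares was not tested. On chromosome 13 the bin from 66 to 67 Mb held 48 H3K9me3 peaks and no H4K20me3 peak in either genotype, whereas the bin from 67 to 68 Mb held 17 H3K9me3 peaks and 16 of H4K20me3, none of which met.

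H4K20me3 peaks that lay on H3K9me3 were mostly lost in KO cells, and of those away from it most were kept in the windows of chromosomes 10, 8, 17 and 2 and fewer on chromosome 13. Of all 228 WT peaks, 110 were kept (48.2%, interval 41.6 to 54.9%), against 63.7% on the rest of the chromosomes (interval 62.2 to 65.1%) and 65.6% in the whole list. On H3K9me3, 3 of 56 were kept (5.36%, interval 1.12 to 14.9%), against 8.95% on the rest and 7.52% in the whole list. The counts were 0 of 12 on chromosome 10, 0 of 8 on chromosome 13, 0 of 22 on chromosome 8, 1 of 7 on chromosome 17, 0 of 3 on chromosome 12 and 2 of 4 on chromosome 7. Away from H3K9me3, 107 of 172 were kept (62.2%, interval 54.5 to 69.5%), against 70.5% on the rest and 72.5% in the whole list. Chromosome 10 kept 11 of these 15, chromosome 8 kept 47 of 66 (71.2%, rest 69.5%), chromosome 17 kept 18 of 29 (62.1%, rest 65.9%) and chromosome 2 kept 17 of 19. Chromosome 12 kept 2 of 3 and chromosome 7 kept 2 of 4, too few to place beside their rest (73.3% and 78.1%). Chromosome 13 kept 10 of 36 (27.8%, interval 14.2 to 45.2%), against 55.2% on its rest (interval 50.1 to 60.2%).

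Of the 34 H4K20me3 peaks lost in the chromosome 13 window, most lay in 2 bins. From 62 to 63 Mb all 13 H4K20me3 peaks were lost, 6 on H3K9me3 and 7 off it. From 67 to 68 Mb 13 of 16 were lost, and all 16 lay off H3K9me3. The bins between them lost 3 of 4 (63 to 64 Mb), 2 of 6 (64 to 65 Mb) and 3 of 5 (65 to 66 Mb). The whole of chromosome 13 had a low KO to WT ratio of H4K20me3 peaks, with 0.575 outside the window and 0.295 within it. Over the 7 windows the ratio was 0.605 (228 and 138), against 0.759 on the rest. It was below that of the rest on chromosomes 10, 13, 8, 12 and 7 and above it on chromosome 17 (0.778 and 0.646) and chromosome 2 (1.21 and 0.796).

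New H4K20me3 peaks in KO cells were few. Of 138 KO peaks, 27 lay where WT had none (19.6%, interval 13.3 to 27.2%), against 16.0% on the rest and 16.8% in the whole KO list. Chromosome 17 had 8 of them among 28 and chromosome 2 had 6 among 23. The strongest lost WT peak of the windows lay on chromosome 8 (73118030 to 73122904, 4875 bp, score 1482), on H3K9me3 and on a KAP1 peak. The strongest kept peak, also on chromosome 8 (73419977 to 73421419), had a WT score of 1770, overlapped no H3K9me3 and met KO peaks with scores up to 1623. On chromosome 10 the strongest lost peak (81366101 to 81368547, score 585) lay on the top H3K9me3 peak of that window, and the strongest kept peak (81022077 to 81023227, WT score 366, KO score 342) lay off H3K9me3. On chromosome 13 the strongest lost peak (63664863 to 63665886, score 199) and the strongest kept peak (64253204 to 64254541, WT score 598, KO score 373) both lay off H3K9me3. On chromosome 17 the strongest lost peak (21723594 to 21724750, score 238) lay on H3K9me3 and the strongest kept one (23812852 to 23814584, WT score 599, KO score up to 180) did not. On chromosome 2 the strongest kept peak (177574370 to 177575119) scored 341 in WT and 406 in KO, and the 2 lost ones scored at most 62.9 (176858869 to 176859488).

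On chromosome 12 the strongest lost H4K20me3 peak (20237676 to 20240282, score 209) lay within the large H3K9me3 peak that was kept, so there H3K9me3 was called in both genotypes and H4K20me3 in WT alone. The strongest kept one on that chromosome (21422365 to 21423415) scored 231 in WT and 79.0 in KO. On chromosome 7 the strongest lost peak (6083864 to 6084598, score 153) lay on a lost H3K9me3 peak and a KAP1 peak. The strongest kept one (7230434 to 7231263, WT score 131, KO score 71.6) lay on an H3K9me3 peak that was itself lost. Loss and retention of the marks thus did not always coincide at single sites.

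KAP1 peaks were few beside WT H3K9me3 peaks both in the windows (18 and 544) and on the rest of the 7 chromosomes (154 and 5296). The 18 peaks made up 4.84% of the KAP1 list, or 0.622 per Mb, against 0.175 per Mb on the rest. KAP1 peaks were thus denser in the windows by a ratio of 3.56, beside 3.13 for WT H3K9me3. Chromosomes 8 and 12 held 6 each, chromosome 7 held 3, chromosomes 10, 13 and 17 held 1 each and chromosome 2 held none. The densest H3K9me3 window, on chromosome 10, thus had 1 KAP1 peak beside 141 H3K9me3 peaks, and that peak (81571728 to 81572058) scored 51.3, near the floor of the list. Of the 18, 8 lay on WT H3K9me3 (44.4%, interval 21.5 to 69.2%), as in 44.4% of the whole list, and 50% did so on the rest of the chromosomes. At a score of at least 100 this order turned, with 55.6% in the windows and 52.1% on the rest. On H4K20me3 lay 7 (38.9%, interval 17.3 to 64.3%), against 22.7% on the rest and 16.7% in the whole list. At 6 of them both marks were called, 2 carried H3K9me3 without H4K20me3, 1 carried H4K20me3 without H3K9me3 and 9 carried no mark. In KO cells 3 of the 18 positions lay on H3K9me3 and 1 on H4K20me3. These KO counts and the split by both marks were not made for other KAP1 peaks, so neither is read as particular to the windows. From the side of the mark, 9 of 544 WT H3K9me3 peaks overlapped a KAP1 peak (1.65%, against 1.68% on the rest) and 34 lay within 10 kb of one (6.25%, interval 4.37 to 8.62%, against 3.85% on the rest).

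The strongest KAP1 peak of the windows lay on chromosome 13 (64270904 to 64271531, score 1166), inside the top H3K9me3 peak of that window. H4K20me3 overlapped it in neither genotype, and H3K9me3 did so in WT alone. On chromosome 8, the peak from 73121336 to 73122147 (score 666) lay on both marks in WT and on neither in KO. So did the peak from 73899630 to 73900396 (score 229), while the one from 72406278 to 72406979 (score 225) lay on H3K9me3 alone in WT. The other 3 on that chromosome scored between 64.8 and 94.9 and lay off both marks in WT, and the weakest of them (71998268 to 71999226) lay on the KO H3K9me3 peak of score 368. On chromosome 7, the peak from 6084013 to 6084876 (score 643) lay on both marks, and the one from 6140935 to 6141686 (score 559) lay on H4K20me3 and 393 bp from the nearest H3K9me3 peak. On chromosome 17 the only KAP1 peak (23712925 to 23713620, score 452) lay 73903 bp from the nearest H3K9me3 peak and on neither mark. On chromosome 12, 1 peak (20239837 to 20240377, score 116) lay on the large kept H3K9me3 peak. The next 2 by score (22162248 to 22162788, score 101, and 22742117 to 22742572, score 74.8) lay 108542 and 118220 bp from H3K9me3, and the other 3 lay 30737 to 224409 bp away. In the windows of chromosomes 10, 13 and 7, with 1, 1 and 3 KAP1 peaks, each lay on or within 1 kb of H3K9me3. On H3K9me3 lay 3 of 6 on chromosome 8, 1 of 6 on chromosome 12 and 0 of 1 on chromosome 17. Counted within 1 kb, the share was 50% in the 7 windows (9 of 18) and 53.9% on the rest (83 of 154). The counts per window are too small to set windows apart.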

How the data were processed

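Peak lists of 5 libraries were used (KAP1 in WT cells, H3K9me3 and H4K20me3 in WT and KO cells). The submitters' processing notes name Bowtie2 2.2.1, MACS 1.4, CASAVA 1.82 and build mm9. The sources used here do not give the call parameters, the controls of the histone calls or the treatment of reads with several matches, and the near-identical gene copies of zinc finger clusters can share reads, so peak positions and numbers there are uncertain. The KAP1 list sets a WT KAP1 library against a WT MEF library, per the file headers. The deposited score of each peak is the authors' value (lowest 50.0) and was used only within a list. The lists give no read counts, so depth is unknown.

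Positions are printed counting from 1. The rest of a chromosome is its length outside the window, counted between the first and the last peak in the 5 lists. Overlap (at least 1 bp), gaps and densities came from Python 3.11.15 (pandas 2.3.3, numpy 2.4.6), Clopper-Pearson intervals with scipy 1.17.1, and figures with matplotlib 3.10.9. Overlap was tested on simulated data, and all 20 ordered pairs of lists gave the same calls as bedtools 2.31.1. Regions named per window are the top WT H3K9me3 peak, up to 3 kept ones, the top new KO peak, the top lost and top kept H4K20me3 peak and up to 3 KAP1 peaks. Other peaks named (the chromosome 7 block, the runs, the remaining KO peaks) were chosen after their values were seen. Windows and measures were chosen with earlier results of these data known.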

Additional observations from a re-analysis of the deposited data

Results flagged for a closer look

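In the chromosome 2 window there were more H4K20me3 peaks but fewer H3K9me3 peaks in KO than in WT. The KO to WT ratio of peak number was 1.21 for H4K20me3 (19 and 23 peaks) and 0.455 for H3K9me3 (22 and 10 peaks). Both ratios lay above those on the rest of the chromosome, 0.796 for H4K20me3 and 0.237 for H3K9me3, so read against the rest the marks did not go opposite ways. Each value rests on 1 library per genotype, and their difference was not tested.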

How the results depend on the processing

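Up to 9 alternatives were applied to 8 values of the 7 windows. Leaving out the chromosome 7 or the chromosome 10 window, and applying the alternatives to the rest of the chromosomes, were chosen after seeing the data. Of 63 alternative values, 41 lay within the exact 95% interval of the reported share or ratio, or within 1.5 times the reported density. Intervals differ in width, so a small change can leave a narrow one. The side relative to the rest changed in 3 cases, given beside the results (windows trimmed at their ends were not set against a rest).

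WT H3K9me3 peaks per Mb (18.8) became 6.57 with scores of at least 100, 4.84 with equal numbers of highest-scoring peaks in both genotypes and 8.71 with peaks within 5 kb merged. On the rest of the chromosomes the density (6.01) became 1.90, 1.30 and 4.18 under these alternatives, each below that of the windows. In the windows, the kept share of H3K9me3 (1.47%) became 3.57% with equal numbers and 0.393% without chromosome 7. Its KO to WT ratio (0.101) became 0.0684 with scores of at least 100, 0.393 with equal numbers, 0.159 merged, 0.143 without chromosome 13, 0.0550 without chromosome 7 and 0.134 without chromosome 10. The kept share of H4K20me3 (48.2%) became 60.6% with equal numbers and 55.4% merged, and its ratio (0.605) became 0.890 with equal numbers. The share of H3K9me3 with H4K20me3 (9.93%) became 5.88% at 50% overlap, 15.4% within 1 kb, 19.3% with equal numbers and 14.7% merged. The share with a neighbour (78.3%) became 72.6% with scores of at least 100, 69.3% with equal numbers, 22.2% merged and 71.7% without chromosome 10. Merging joins neighbours and the score and number limits remove peaks by construction. Otherwise the cause was not tested.

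No paired analysis was possible because each group had 1 library and no test was made. Depth is unknown, so an absent peak means only that none was called.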
